A study of Mus musculus with 5 samples.

Results

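The 59 mouse genes described here copy DNA, control entry into S phase or act in mitosis. They were named in a list, and a gene counted as measured where a probe on the array carried its symbol and no other. Of the 59 genes, 46 had such a probe, out of 9669 genes represented in this way on the array, and 45 had a value on at least 1 array. By role, 17 of 19 replication genes, 10 of 13 genes of G1 and S phase control and 19 of 27 mitosis genes had a probe. Pola1, Tyms, Ccne2, E2f1, Chek1, Ccnb1, Aurkb, Bub1, Mad2l1, Kif11, Kif20a, Stmn1 and Hmgb2 were not analysed here, and the probe of Ccnd3 held no value.

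RNA of NIH3T3, an established mouse fibroblast line, was set against RNA of NIH3T3 cells that constitutively overexpress human ERBB2 (HER-2/NEU), a receptor tyrosine kinase, from a cytomegalovirus promoter. Both lines were grown in the same DMEM with 10% fetal calf serum, and no further agent is named. The labels do not say whether the transfected cells were derived from 1 clone. Each of 5 arrays carried cDNA of both lines in different dyes. Arrays A1, A2 and A3 belonged to preparation A, and arrays B1 and B2 to preparation B. The Erbb2 cDNA was in Cy3 on A1, A2 and B1 and in Cy5 on A3 and B2. No source states that the preparations were separate cultures, so p-values rest only on spread between these samples, which may be technical. Much of that spread is pooled over the whole array, as set out below.

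A cell copies its DNA in S phase and divides it in mitosis. Cyclin D with CDK4, and then cyclin E with CDK2, inactivate the RB family of pocket proteins in G1, which frees E2F transcription factors to switch on genes for nucleotide supply and for the MCM helicase. Mitotic genes are switched on later, by factors that act through CHR elements and NF-Y boxes in their promoters. In fibroblasts these programmes are low in resting cells and follow growth factor signals, such as those of ERBB receptors.

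Promoters of 6 genes that the results return to are shown because they hold, or lack, the elements just named. Each is the RefSeq window from 250 bases before to 50 bases after the start site in build GRCm38.p6, printed 5′ to 3′ along the gene. Capitals mark matches on either strand to the E2F core (TTGGCGC or TTCGCGC, on the other strand GCGCCAA or GCGCGAA), the CHR element (TTTGAA, or TTCAAA) and the NF-Y box (CCAAT, or ATTGG). Matches of the E2F core on opposite strands, and of the E2F core and the NF-Y box, can overlap and then run together. The windows lie at chr8:75109259-75109558 (plus strand) for Mcm5, chr1:128359656-128359955 (minus strand) for Mcm6, chr5:138171834-138172133 (minus strand) for the first of 2 windows of Mcm7, chr11:117825965-117826264 (minus strand) for Tk1, chr11:99024140-99024439 (minus strand) for Top2a and chr3:89418242-89418541 (minus strand) for Cks1b.
Mcm5: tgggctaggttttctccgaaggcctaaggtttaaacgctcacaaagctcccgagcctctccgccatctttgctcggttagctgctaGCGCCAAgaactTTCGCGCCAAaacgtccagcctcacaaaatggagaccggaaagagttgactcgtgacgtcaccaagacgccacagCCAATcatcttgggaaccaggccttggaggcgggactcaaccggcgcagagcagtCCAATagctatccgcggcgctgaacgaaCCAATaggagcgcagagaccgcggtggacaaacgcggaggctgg
Mcm6: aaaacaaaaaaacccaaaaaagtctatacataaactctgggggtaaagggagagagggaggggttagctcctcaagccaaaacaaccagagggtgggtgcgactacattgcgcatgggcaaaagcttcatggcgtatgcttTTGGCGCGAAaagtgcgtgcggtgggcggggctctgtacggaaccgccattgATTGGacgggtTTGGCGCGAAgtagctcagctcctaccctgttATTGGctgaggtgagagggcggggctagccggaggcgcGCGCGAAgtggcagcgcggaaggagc
Mcm7: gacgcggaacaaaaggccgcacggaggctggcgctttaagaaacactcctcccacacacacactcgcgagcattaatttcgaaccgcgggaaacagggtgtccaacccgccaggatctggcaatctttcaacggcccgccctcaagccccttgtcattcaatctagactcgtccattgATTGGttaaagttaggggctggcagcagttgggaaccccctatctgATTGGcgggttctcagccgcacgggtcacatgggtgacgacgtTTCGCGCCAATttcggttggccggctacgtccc
Tk1: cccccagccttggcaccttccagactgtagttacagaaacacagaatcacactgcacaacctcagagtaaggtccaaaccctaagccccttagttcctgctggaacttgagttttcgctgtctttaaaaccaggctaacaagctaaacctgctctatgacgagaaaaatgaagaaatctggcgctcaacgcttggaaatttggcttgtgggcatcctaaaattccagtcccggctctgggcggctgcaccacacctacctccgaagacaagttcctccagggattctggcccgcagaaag
Top2a: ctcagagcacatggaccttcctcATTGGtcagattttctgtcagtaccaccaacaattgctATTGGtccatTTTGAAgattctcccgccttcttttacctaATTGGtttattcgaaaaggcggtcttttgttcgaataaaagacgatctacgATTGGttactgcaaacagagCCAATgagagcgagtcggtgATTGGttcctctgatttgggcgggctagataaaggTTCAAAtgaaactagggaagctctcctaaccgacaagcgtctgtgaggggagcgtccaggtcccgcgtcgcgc
Cks1b: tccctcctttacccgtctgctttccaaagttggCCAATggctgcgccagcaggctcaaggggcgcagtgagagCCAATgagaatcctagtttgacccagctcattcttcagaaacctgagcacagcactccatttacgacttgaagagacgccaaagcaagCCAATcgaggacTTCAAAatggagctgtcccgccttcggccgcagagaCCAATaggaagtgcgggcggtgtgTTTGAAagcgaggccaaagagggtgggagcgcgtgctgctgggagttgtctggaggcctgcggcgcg

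The Mcm5 window held 3 matches to the E2F core, the Mcm6 window 5 and the Mcm7 window 2, and none of the 3 held a CHR match. In each of these windows some E2F matches overlap on opposite strands, so separate sites are fewer than matches. Top2a, the topoisomerase that untangles chromosomes, and Cks1b, a small CDK subunit, each held 2 CHR matches, with 6 and 4 NF-Y boxes. The Tk1 window held none of the 3 motifs, which says only that these letters are not in these 300 bases. Of the 59 genes, 50 had a window. The E2F core was found in 8 of 17 replication genes, 0 of 10 genes of G1 and S phase control and 4 of 23 mitosis genes, against 4.47% of all 27025 genes with a window. A CHR match was found in 3 of 17 replication genes, 1 of 10 control genes and 15 of 23 mitosis genes, against 20.2% of all genes. The NF-Y box was found in 11 of 17, 5 of 10 and 19 of 23, against 41.1% of all genes. These are descriptions of letters and not of binding, and the share was not tested.

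**Figure D1:**
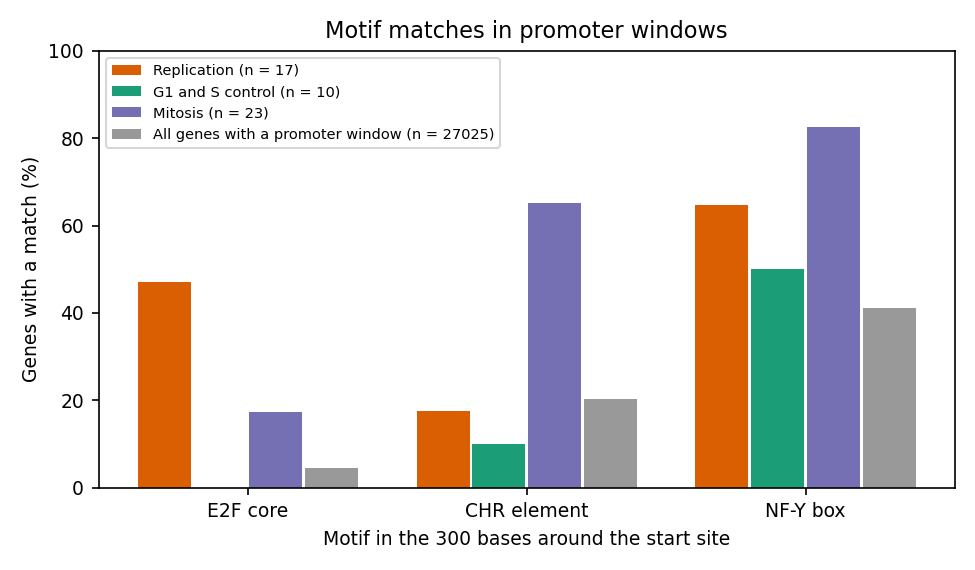
Share of genes (%) whose 300-base promoter window holds at least 1 match to the E2F core, the CHR element or the NF-Y box, by role and for all 27025 genes with a window. The E2F bar is tallest for the replication genes (8 of 17) and the CHR bar for the mitosis genes (15 of 23).

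The values that follow are log2 ratios, in which 1 stands for a 2-fold difference. They are given as Erbb2-transfected over NIH3T3. The direction is likely and not settled: Cy5 was taken as the numerator because the labels list it as channel 1, and under the opposite reading each rise is a fall of equal size. A ratio between the lines gives no level of a gene in either, and cannot tell a rise in the transfected cells from a fall in NIH3T3. A gene's ratio is the mean of the 2 preparations, each averaged over both dye orientations, with the SD between the preparations. This SD does not show how far apart the arrays within a preparation lay. A gene was tested where each preparation gave values with the dyes both ways round, as 28 of the 45 genes did. A rise or fall is a limma p-value under 0.05 after Benjamini-Hochberg adjustment over all 4892 features tested. Its standard error rests mostly on a spread pooled over these features (prior degrees of freedom 10.2). The gene's own 2 preparations give 1 degree of freedom, so the p-value can be small where the SD is large.

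Arrays held between 5368 (A1) and 17463 (B1) values, and B1 and B2 held more than any array of preparation A. Across probes, the turned ratios of any 2 arrays correlated with r between 0.17 and 0.54. Of all 4892 features, 332 (6.79%) passed the threshold, 110 (2.25%) higher and 222 (4.54%) lower in the transfected cells. Of 12 fibroblast markers 9 had a value and 6 were tested. The matrix genes Col1a1 (-4.93 ± 0.75), Col1a2 (-3.97 ± 0.14) and Fn1 (-4.61 ± 0.13) were lower. The other 3 did not pass, with 0.51 ± 0.99 for the collagen Col3a1, which was at 2.70 on A1 and below 0 only on B2 (-0.64), 0.47 ± 0.32 for vimentin (Vim) and -0.01 ± 0.28 for S100a4. No tested marker of epithelium (1 tested of 7), endothelium (1 of 6) or skeletal muscle (1 of 5) passed, and none of 6 leukocyte and 5 adipocyte markers could be tested. The transfected gene itself was not analysed here.

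Of the 28 tested cell cycle and replication genes, 1 rose, the replication gene Tk1, and 0 fell. This is 1 of 28 higher against 2.25% of all features, and 0 of 28 lower against 4.54%. At an unadjusted limma p under 0.05 the count was 7 of 28, against 1118 of all 4892 features. The median ratio was 0.06 over the 28 genes and -0.02 over all features. On every array with a value, 7 genes were higher in the transfected cells (Tk1, Rrm1, Cks1b, Cdkn1a, Top2a, Kif23 and Birc5) and 1 was lower (Cdk4). Over all features, 10.9% were higher on every array with a value and 13.4% were lower.

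**Figure D2:**
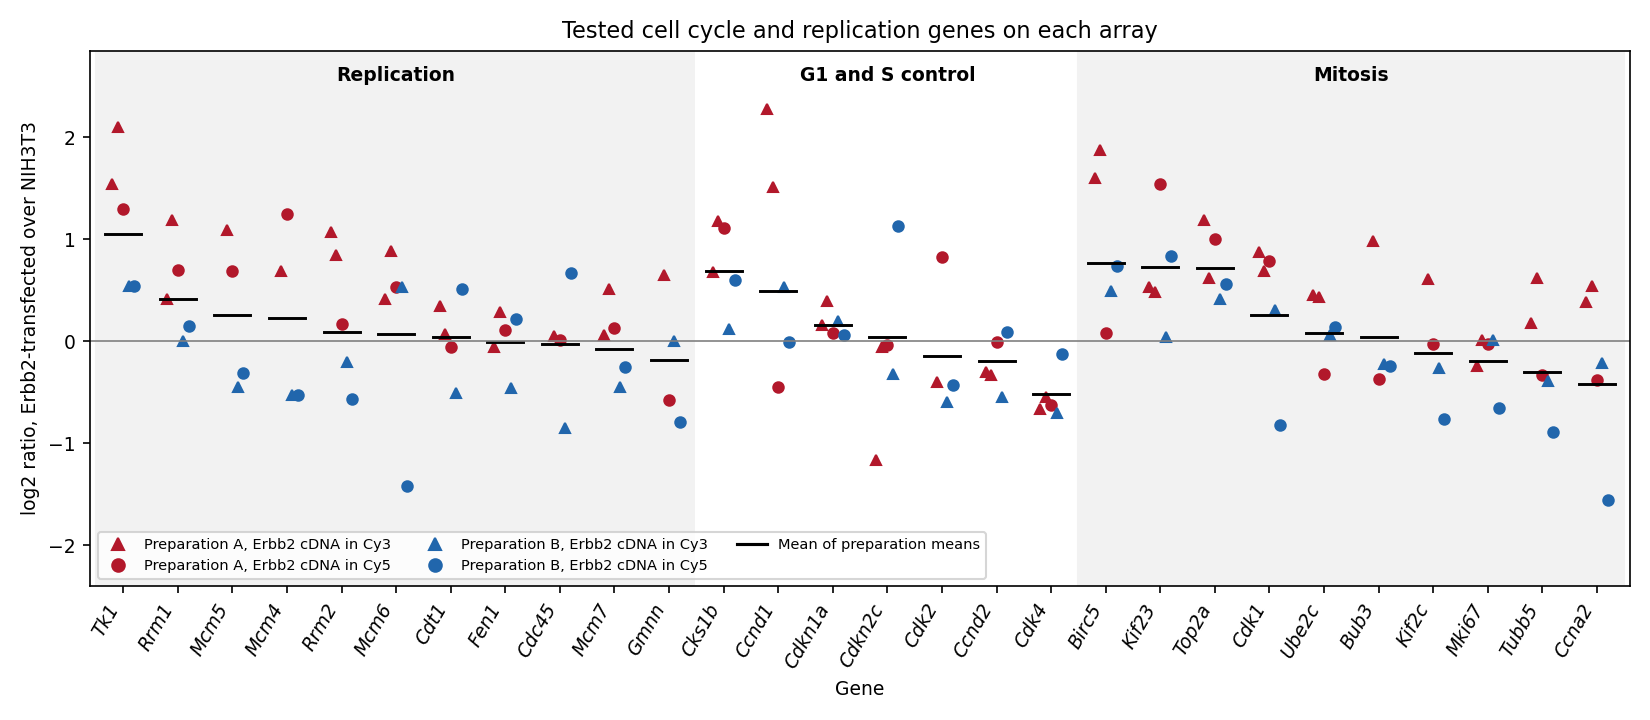
The log2 ratio of Erbb2-transfected over NIH3T3 cells (y axis) of the 28 tested genes on each array, by role, in red for preparation A and blue for preparation B, as triangles for Erbb2 cDNA in Cy3 and circles for Cy5, with a black line at the mean of the preparation means. Tk1 lies above 0 on all 5 arrays, Cdk4 lies below 0 on all 5, and Mcm4, Mcm5, Mcm7 and Rrm2 have red points above and blue points below 0.

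Among the replication genes, Tk1 and Rrm1 had the highest mean ratios, and both supply nucleotides. Tk1, the thymidine kinase that salvages thymidine in S phase, had 1.54 on A1, 2.11 on A2, 1.29 on A3, 0.55 on B1 and 0.55 on B2. All 5 ratios were above 0, and the 3 of preparation A were each above both of preparation B. Its mean ratio was 1.05 ± 0.72 (SD, n = 2 preparations), a 2.07-fold rise with a limma adjusted p of 0.0307. The limma standard error behind this p was 0.25 and came mostly from the pooled spread, not from the SD of Tk1 alone. In bulk RNA, more cells in S phase and more RNA per cell cannot be told apart. The call was lost without A3 (ratio 1.18), without B1 (1.05) and without B2 (1.05). Each of these arrays is the only one of its dye orientation in its preparation, so without it a dye effect no longer cancels. Without A3 the features tested also changed, from 4892 to 8074. The limma adjusted p ran from 9.0278e-04 to 0.133 over 16 alternatives.

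Rrm1 and Rrm2 encode the large and small subunits of ribonucleotide reductase, which makes deoxynucleotides. Rrm1 had 0.42 on A1, 1.19 on A2, 0.70 on A3, 0.00 on B1 and 0.15 on B2. None of its ratios was below 0, but those of preparation B were close to it, and the mean of 0.41 ± 0.48 did not pass (limma adjusted p = 0.315). Rrm2 had 1.07 on A1, 0.85 on A2, 0.17 on A3, -0.20 on B1 and -0.56 on B2. Its 3 ratios were above 0 in preparation A and its 2 ratios below 0 in preparation B, so the mean was 0.09 ± 0.67. Both probes of Rrm2 showed these signs wherever they had a value.

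The MCM genes encode the helicase that is loaded at origins in G1 and unwinds DNA in S phase. Of its 6 subunits, 4 were tested, and 0 passed. Mcm4 had 0.69 on A2, 1.25 on A3, -0.53 on B1 and -0.52 on B2, with no value on A1. Mcm5 likewise had no value on A1, with 1.09 on A2, 0.69 on A3, -0.44 on B1 and -0.31 on B2. Both genes were thus above 0 on each measured array of preparation A and below 0 on both arrays of preparation B. Mcm7 had the same signs at a smaller size, with 0.06 on A1, 0.51 on A2, 0.13 on A3, -0.45 on B1 and -0.25 on B2. Mcm6 had 0.42 on A1, 0.89 on A2, 0.53 on A3 and 0.54 on B1, but -1.42 on B2. Its ratio thus differed in sign within preparation B. Without B1 its mean turned from 0.07 to -0.41, with preparation B then resting on B2 alone, in the Cy5 orientation. The medians of the 4 subunits were 0.74 in preparation A and -0.41 in preparation B, and 0.15 in the mean of both. Mcm2 and Mcm3 were measured only in preparation B, with -0.05 and -0.29 for Mcm2 and -0.11 and 1.10 for Mcm3, and were not tested.

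**Figure D3:**
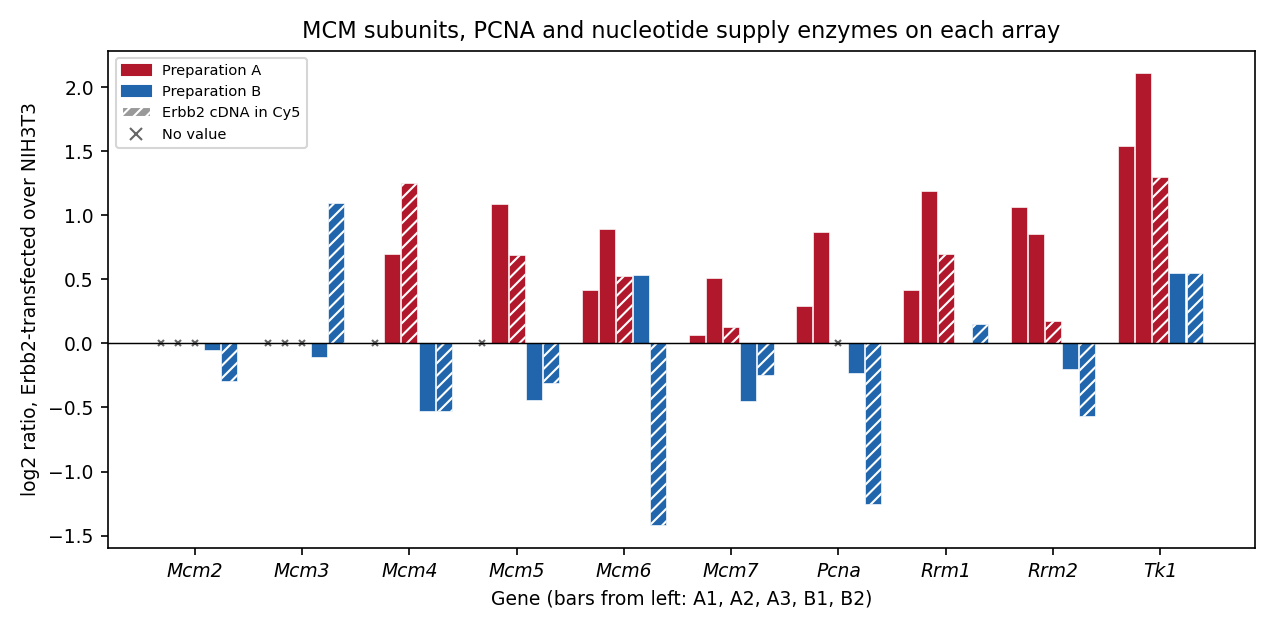
The log2 ratio of Erbb2-transfected over NIH3T3 cells (y axis) on each array for the 6 MCM subunits, Pcna and the nucleotide enzymes Rrm1, Rrm2 and Tk1, with preparation A in red, preparation B in blue, hatching for Erbb2 cDNA in Cy5 and a cross for no value. Red bars point up throughout, while the blue bars of Mcm2, Mcm4, Mcm5, Mcm7, Pcna and Rrm2 point down and those of Tk1 point up.

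The remaining replication genes load the helicase or act at the fork. Cdt1, which loads MCM, and geminin (Gmnn), its inhibitor, had means of 0.04 ± 0.05 and -0.18 ± 0.30. Within preparation B, Cdt1 ran from -0.51 on B1 to 0.52 on B2. Gmnn was above 0 on A2 (0.65) and B1 (0.01) and below 0 on A3 (-0.58) and B2 (-0.80), so its sign followed the dye. Cdc45, which joins the helicase when it is activated, had -0.03 ± 0.09, but ran from -0.85 on B1 to 0.67 on B2. The flap endonuclease Fen1 had -0.00 ± 0.16. Neither Cdc45 nor Fen1 had the same sign on all its arrays. Pcna, the sliding clamp of DNA polymerases, had 0.29 on A1, 0.87 on A2, -0.23 on B1 and -1.25 on B2, and was not tested for want of a value on A3. Prim1, the catalytic subunit of primase, had -0.91 on A1, -0.64 on A2, -1.01 on B1 and -1.12 on B2. It was below 0 on all 4 arrays with a value, unlike Pcna, and it too had no value on A3. The ligase Lig1 was above 0 on 3 of 3 arrays, between 0.04 and 0.29, and the loading factor Cdc6 on 2 of 3, between -0.44 and 0.31. Over the 11 tested replication genes the median was 0.07, with 7 above and 4 below 0, and it was 0.22 without B1 and 0.18 without B2.

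Among genes of G1 and S phase control, 7 were tested and 0 passed, with a median of 0.04. Cks1b, which helps the SCF ubiquitin ligase recognise the inhibitor p27, had 0.68 on A1, 1.18 on A2, 1.11 on A3, 0.12 on B1 and 0.60 on B2. All 5 ratios were above 0, and the mean of 0.69 ± 0.47 had a limma adjusted p of 0.0979. Cdk4, the kinase partner of D cyclins, was the only tested gene of the set below 0 on all 5 arrays, with -0.67 on A1, -0.55 on A2, -0.62 on A3, -0.70 on B1 and -0.13 on B2. Its mean was -0.51 ± 0.14, and B2 stood apart from 4 arrays that lay close together (limma adjusted p = 0.165).

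Cyclin D1 (Ccnd1), which growth factor signals induce in G1, had 2.28 on A1, 1.51 on A2, -0.45 on A3, 0.53 on B1 and -0.00 on B2. Its ratios were above 0 on the 3 arrays with Erbb2 cDNA in Cy3, with a mean of 1.21 over the preparations, and at or below 0 on both arrays with Cy5, with a mean of -0.23. The dye effect of Ccnd1 had an unadjusted limma p of 0.00487 (adjusted 0.211), and the mean of 0.49 ± 0.33 had an adjusted p of 0.201. At an unadjusted p under 0.05, a dye effect was seen for 5 of the 28 genes (Ccnd1, Ccna2, Gmnn, Cdkn2c and Kif23), against 12.9% of all features. None of the 28 passed after adjustment. Ccnd2 (cyclin D2) had a mean of -0.19 ± 0.05 and was above 0 only on B2 (0.09).

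CDK inhibitors had small ratios or ratios of both signs. Cdkn1a (p21) had 0.16 on A1, 0.39 on A2, 0.09 on A3, 0.20 on B1 and 0.06 on B2. These were all above 0 and all under 0.40 in size, with a mean of 0.16 ± 0.03 (limma adjusted p = 0.705). Cdkn2c (p18) ran from -1.17 on A1 to 1.13 on B2, the widest range of the 3 inhibitors with a value. Cdkn1b (p27) was measured on B1 (-0.23) and B2 (-0.59) alone. The kinase Cdk2, which acts with cyclins E and A, was below 0 on 3 of 4 arrays and at 0.83 on A3. Cyclin E1 (Ccne1) was above 0 on 4 of 4 arrays, with 0.82, 0.08, 0.52 and 0.62 on A1, A2, B1 and B2, and was not tested.

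Mitosis genes gave 10 tested members, of which 0 passed, with a median of 0.06 that ran from 0.0077 without B1 to 0.19 without A2 and 0.26 without A3. Birc5 (survivin), a subunit of the chromosomal passenger complex, had 1.60 on A1, 1.88 on A2, 0.08 on A3, 0.50 on B1 and 0.74 on B2. All 5 ratios were above 0, and the mean of 0.76 ± 0.20 had a limma adjusted p of 0.0508, just above the threshold. Top2a had 1.19 on A1, 0.62 on A2, 1.00 on A3, 0.41 on B1 and 0.56 on B2. Its 5 ratios were above 0 with preparation A above B throughout, and its mean was 0.72 ± 0.33 (limma adjusted p = 0.0707). Kif23, a kinesin of the central spindle needed for cytokinesis, had 0.53 on A1, 0.49 on A2, 1.54 on A3, 0.04 on B1 and 0.84 on B2. Within each preparation the array with Erbb2 cDNA in Cy5 was the highest, and the mean was 0.73 ± 0.41 (limma adjusted p = 0.0748). Without A3, which leaves preparation A in the Cy3 orientation only, the ratio of Birc5 was 1.18 and that of Kif23 was 0.47. Under 6 alternatives Birc5, Cks1b, Kif23, Top2a and Tk1 passed together, and under 7 others, including leaving out A3, B1 or B2, none of the 28 genes passed. Among the 6 was the looser threshold of 0.1, and among the 7 the stricter one of 0.01, which only re-read the main p-values. The 6 also included the fits on the 5 arrays, which enter arrays of the same preparation as separate values. These counts are therefore not counts of independent results.

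Cdk1 and its cyclins had ratios of both signs. Cdk1, the kinase that drives entry into mitosis, had 0.88 on A1, 0.69 on A2, 0.79 on A3, 0.31 on B1 and -0.82 on B2. It was above 0 on 4 of 5 arrays, with a mean of 0.26 ± 0.74, and B2 alone was below 0. Ccna2 (cyclin A2) had 0.39 on A1, 0.54 on A2, -0.38 on A3, -0.22 on B1 and -1.56 on B2, with a mean of -0.42 ± 0.66. It had the lowest mean of the tested mitosis genes and was above 0 on A1 and A2 only. Ccnb2 (cyclin B2) had 1 value, -0.60 on B1.

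The other mitosis genes lay near 0 or had few values. Ube2c, the ubiquitin-conjugating enzyme of the anaphase-promoting complex, had 0.08 ± 0.03. The checkpoint gene Bub3 had 0.04 ± 0.38, with the mean of its probes above 0 on A2 (0.98) alone. Only 1 of its 2 probes had a value on A2, and the probes differed in sign on B1 and B2. The proliferation antigen Mki67 had -0.20 ± 0.18, the kinesin Kif2c -0.11 ± 0.56 and the tubulin gene Tubb5 -0.30 ± 0.48. No gene of these 5 had the same sign on all its arrays. The kinase Aurka was at 0.99 on A2, -0.02 on B1 and, on the other array of that preparation, 0.19, and the checkpoint kinase Bub1b had 0.98 on A2 and 0.03 on B1, so both were high on A2 and near 0 in preparation B. Plk1, a kinase of mitotic entry, had 0.02 on B1 and -0.06 on B2. Cenpa, the histone variant of centromeres, had 1 value, -0.77 on B1, and the centromere motor Cenpe was below 0 on 3 of 3 arrays, down to -0.68 on B2. Cdc20, which activates the anaphase-promoting complex, was above 0 on 2 of 2 arrays, and the spindle gene Tacc3 on 2 of 4. Cks2, a relative of Cks1b, ran from -0.27 on A3 to 0.45 on B2.

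Ratios of the set differed in order between the preparations. Of the 28 tested genes, 25 had a higher mean ratio in preparation A than in preparation B, where 50.2% of all features did. Under the opposite reading of the dyes this order turns as well, and 3 of the 28 are higher in preparation A. By role, the 25 genes higher in preparation A as read here were 11 of 11 replication genes, 5 of 7 genes of G1 and S phase control and 9 of 10 mitosis genes. The mean ratio of the replication genes was 0.53 in preparation A and -0.19 in preparation B, and that of the mitosis genes was 0.43 and -0.12. Control genes had 0.15 and 0.00, and all features had -0.04 and -0.05. The 3 genes with the opposite order were Cdk4, Cdkn2c and Ube2c.

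**Figure D4:**
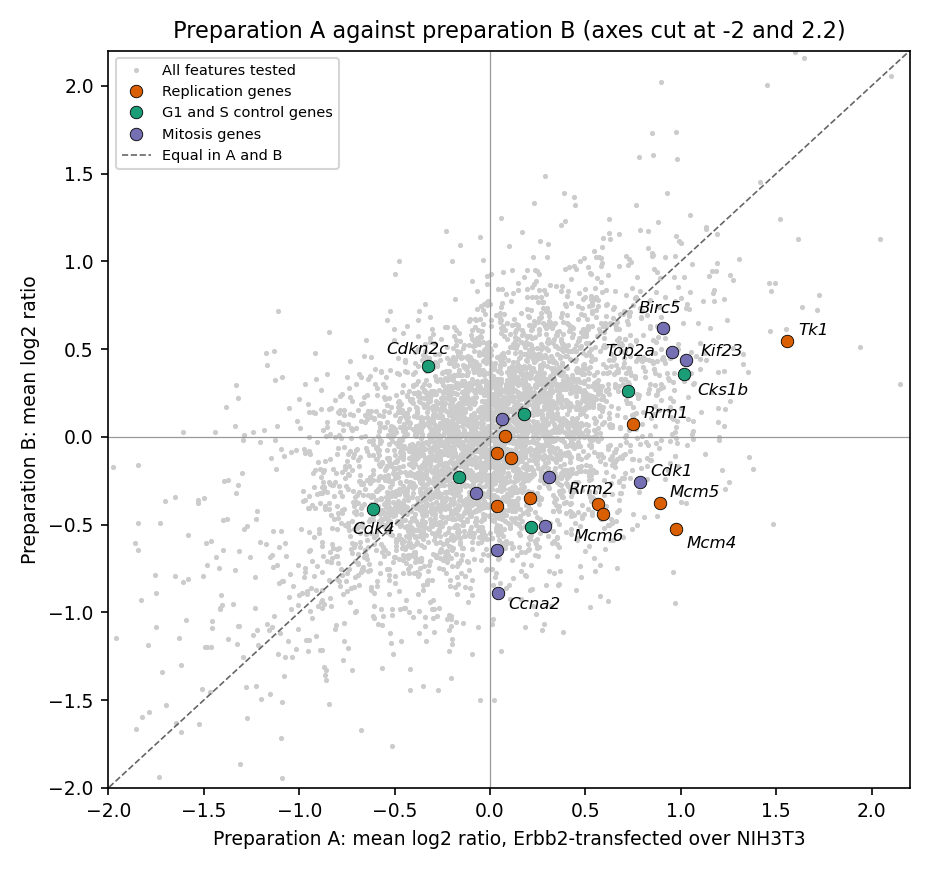
Mean log2 ratio of Erbb2-transfected over NIH3T3 cells in preparation A (x axis) against preparation B (y axis) for all 4892 features tested (grey) and for the 28 genes by role (colours), with axes limited to the range shown and a dashed line of equality. Points of 25 of the 28 genes lie below the line, which 50.2% of all features do. Right of 0 on the x axis and below 0 on the y axis lie 8 of the 11 replication genes, against 857 of all 4892 features.

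Gene by gene, 12 of the 28 had every array of preparation A above every array of B, against 12.5% of all features. These were Mcm4, Mcm5, Mcm7, Rrm1, Rrm2 and Tk1 among the replication genes, Cks1b and Cdk2 among the control genes, and Top2a, Cdk1, Kif2c and Tubb5 among the mitosis genes. For Kif2c this held for the mean of its 2 probes, while 1 of them had -0.35 on A3 and -0.23 on B2. In 4 of the 28, all replication genes (Mcm4, Mcm5, Mcm7 and Rrm2), the arrays of A were all above 0 and those of B all below 0, against 3.45% of all features.

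The test of the difference, with preparation and dye as terms on the 5 arrays, passed for 0 of the 28 genes, against 1 of all features (0.0204%). At an unadjusted limma p under 0.05 it gave 6 of 28, against 6.75% of all features. These were Mcm4, with a difference of 1.50 between preparations A and B (limma adjusted p = 0.479), and Mcm5, with 1.27 (limma adjusted p = 0.609). Tk1 (1.05), Rrm2 (0.98), Cdk1 (0.96) and Ccna2 (0.89) followed, with adjusted p between 0.648 and 0.686. Mcm6, with a difference of 0.90, had an unadjusted limma p of 0.0584. The 28 genes are not replicates of the preparations, so the counts describe these 5 arrays and carry no p-value. The p-values of the single genes rest on the spread between arrays within the preparations, which limma pools in part over all features. They compare these preparations and no wider population.

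This order held for more genes in the Cy3 orientation than in the Cy5 orientation. On the arrays with Erbb2 cDNA in Cy3, the mean of A1 and A2 was above B1 in 26 of 28 genes, namely 11 of 11 replication genes, 6 of 7 control genes and 9 of 10 mitosis genes. Between A3 and B2, with Erbb2 cDNA in Cy5, A was above B in 18 of 28, namely 8 of 11, 3 of 7 and 7 of 10. Of all features, 48.3% and 51.6% had this order in the Cy3 and the Cy5 orientation. The 4 MCM subunits had it in both orientations. Among the replication genes, leaving out B1 lowered the count to 8 of 11, and leaving out A1, A2, A3 or B2 left every tested gene in this order. Preparation A also had fewer values per array, 5368 to 11348 against 13109 and 17463, and the part of this in the order was not tested.

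Promoter matches were set beside these values for the 23 tested genes with a window. The 8 genes with an E2F core match (Cdk1, Cdt1, Fen1, Mcm5, Mcm6, Mcm7, Mki67 and Tubb5) had median ratios of 0.16 in preparation A and -0.33 in preparation B, and A was above B in 8 of 8. The 15 genes without a match had medians of 0.31 and 0.10, and A was above B in 12 of 15. For the CHR element, A was above B in 9 of 10 genes with a match and in 11 of 13 without. The order between the preparations was thus seen with and without either motif, and no test was made.

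A further list of 172 genes of the same pathways was used for comparison. Of these, 115 had a probe of their own, 46 were tested, 0 rose and 2 fell, against 2.25% and 4.54% of all features. Rbl2, which encodes the pocket protein p130 that holds E2F target genes silent in resting cells, had -1.74 on A1, -1.92 on A2, -2.81 on A3, -1.39 on B1 and -2.98 on B2. It was below 0 on 5 of 5 arrays, with a mean of -2.25 ± 0.10. Ccnh, the cyclin of the CDK-activating kinase, had -0.59 on A1, -0.86 on A2, -1.07 on A3, -0.89 on B1 and -1.04 on B2. Its mean was -0.93 ± 0.05 with a limma adjusted p of 0.0194. The median over the 46 genes was -0.04, and 34 of 46 had a higher mean in preparation A than in B, namely 9 of 10 replication genes, 7 of 12 control genes and 18 of 24 mitosis genes. Rbl2 passed under all 16 alternatives, between -2.65 and -1.85, and Ccnh did not pass under 5 of the 16.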

How the data were processed

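Dual-colour cDNA arrays compared Erbb2-transfected with parental NIH3T3 cells on 5 arrays. Per the labels, the authors scanned with a GenePix 4000A, processed images in GenePix Pro 3.0, subtracted background and set the median ratio of each array to 1. The base of the deposited log ratios is not stated, and log2 was taken. On A2, values were matched to logs of ratios of whole numbers up to 300 within 6e-07, after subtracting a constant chosen for each base to match best. For log2, 19.8% matched, against 2.25% for the natural logarithm and 2.93% for log10. With the constant shifted, the shares were 1.15% for log2, 1.89% for the natural logarithm and 3.18% for log10. Which spots were left empty, and why, is not stated in the sources used here. Ratios were turned to Erbb2-transfected over NIH3T3, taking Cy5 over Cy3.

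Of 20205 probes, 11723 had 1 gene symbol, 806 had several and 7676 had none. Probes of 1 symbol were averaged to a gene, and others kept as features (18151 in all). The 59 genes had 52 probes, and all 52 symbols matched RefSeq. Arrays of a preparation were averaged over dye orientations, and limma 3.58.1 (lmFit, eBayes; R 4.3.3; prior degrees of freedom 10.2) tested the mean of the 2 preparations against 0, with Benjamini-Hochberg adjustment over 4892 features. Preparation and dye effects were tested with limma on the 5 arrays. Precision of the cell line comparison is limited by the 2 preparations, and that of the preparation and dye effects by the number of arrays. The procedure was run on simulated data with independent noise on each array. That noise has no part shared within a preparation, so the simulation cannot check how the test handles such sharing.

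The genes and lists were chosen with earlier results of these data known. Values on every array are given for genes past the threshold, for those with 1 sign on every array, and for the 6 with the largest absolute difference between preparations. Other genes appear within their role, and genes of the further list are named where they passed. The count of genes higher in preparation A within each dye orientation was added after seeing the data. Alternatives covered the unit of replication, filter, centring, scaling, probe summary, variance estimate, threshold and leaving out each array. Motifs were searched with Python 3.11.15, and figures were drawn with matplotlib 3.10.9.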

Additional observations from a re-analysis of the deposited data

Results flagged for a closer look

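Among the 32 genes of the set with values on 4 or 5 arrays, 4 had an array whose gap to the nearest array was large for the range of that gene. The nominal rate of this rule is about 5% of genes, for independent arrays with normal spread. These arrays share preparations and dye orientations, and the share of all features was not counted, so no excess can be read from the 4. Bub3 was at 0.98 on A2, with the next array at -0.22. Its A2 value came from 1 of its 2 probes, and the other arrays are means of both. The probe with a value on A2 was at 0.31 on B1, where the other was at -0.75. Cdk2 was at 0.83 on A3, with the next at -0.40. Cdk4 was at -0.13 on B2, with the next at -0.55, and Mcm6 was at -1.42 on B2, with the next at 0.42.

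In 5 genes, all of the replication group, the arrays of preparation A lay above 0 and those of preparation B below 0. The difference was 1.50 for Mcm4, 1.27 for Mcm5, 0.98 for Rrm2 and 0.58 for Mcm7, with limma adjusted p-values of 0.479, 0.609, 0.663 and 0.866, so none passed the test of the difference. For Pcna the mean of A1 and A2 exceeded that of B1 and B2 by 1.32, and this difference was not tested because A3 held no value. Its A arrays are both in the Cy3 orientation and B2 is in Cy5, so it mixes dye with preparation, unlike the differences above. On B2 only 1 of its 2 probes had a value. The genes were singled out by their signs, in a search that took either order and also genes outside the test, such as Pcna. Of the 28 tested genes, 4 had preparation A above and B below 0, against 3.45% of all tested features.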

How the results depend on the processing

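Calls of the cell line comparison depended on the processing more than the ratios did. Some alternatives also changed the 4892 features tested. These were 11817 with a value on at least 1 array of each preparation, and 2920 to 8074 without 1 array. They were 4773 with only probes measured in both orientations, and 5014 with each probe as its own feature. Leaving out A3, B1 or B2 left a preparation in 1 dye orientation, where a dye effect no longer cancels. The 332 features past the threshold became 509 with 5 arrays and preparation as a random block, 149 with a value on at least 1 array of each preparation, 535 after re-centring, 124 after scaling to equal spread, 193 after quantile normalization, 564 with only probes measured in both orientations, 544 with each probe as its own feature, 120 at an adjusted p under 0.01 and 548 at 0.1, and 198 to 498 when 1 array was left out. Of the 28 genes, 5 passed with 5 arrays and a dye term, with the random block, after re-centring, with probes of both orientations, with each probe apart and at 0.1. With a value on all 5 arrays 2 of 21 tested genes passed, and with the median of probes 2 of 28. With at least 1 array of each preparation 0 of 39 tested genes passed. After scaling, after quantile normalization and at 0.01, 0 of 28 passed. Without 1 array of preparation A, 0 to 4 passed, of 21 to 36 tested. Tk1 stayed between 0.98 and 1.18 in ratio, and passed in 11 of 18 alternatives. Re-centring shifted no array by more than 0.035, while the prior degrees of freedom went from 10.2 to 34.3; they were 5.13 after scaling, and the cause of these changes was not tested. The control genes' median of 0.04 became 0.10 with a value on at least 1 array of each preparation and on all 5 arrays, 0.076 after quantile normalization and -0.19 to 0.18 without 1 array, where the replication median ran from 0.064 to 0.22 and the mitosis median from 0.0077 to 0.26. Features that differed between preparations numbered 1 to 25 without 1 array, and the replication mean in preparation B ran from -0.25 to -0.10. Cdk1 ran from -0.019 without B1 to 0.55 without B2, and Mcm6 from -0.41 to 0.56, none past the threshold. With the repetition number as a replicate block and no dye term, 1 feature and 0 of the 28 genes differed between preparations, as without it. Same-numbered arrays did not deviate together (r = 0.03 and -0.35), repetition 2 differs in dye between preparations, and the block with a dye term could not be fitted.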

Other observations

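A probe shared by Cks2 and Gm15452, left out above because it carries 2 symbols, had log2 ratios of 1.60 on A1, 1.35 on A2, 1.77 on A3 and 0.41 on B2, and no value on B1. It was above 0 on 4 of 4 arrays, whereas the probe of Cks2 alone had -0.27 on A3 and 0.45 on B2. Cks2, like Cks1b, encodes a small subunit that binds CDKs. A probe shared by Ccnd3 and Bysl ran from -0.36 on B2 to 0.53 on B1 and had no shared sign.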
